A study of Mus musculus with 5 samples.

Results

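The 10 elastic fibre and microfibril genes Eln, Fbn1, Fbln1, Fbln2, Fbln5, Emilin1, Emilin2, Mfap4, Mfap5 and Lox were followed in oviductal stromal cells of control mice and of mice labelled as conditional knockouts for Esr1, which encodes estrogen receptor alpha. They were chosen by name, with earlier results of these data known, and all 10 were present among 23857 listed genes. RNA was sequenced in bulk from YFP-positive stromal cells sorted from the fallopian tubes of young adult female mice, 1 mouse per library. The 2 controls, mice 2 and 3, were Pdgfra-Cre;R26Y. The other 3 mice, numbered 1, 2 and 3, were Pdgfra-Cre;Esr1(fl/fl);R26Y. All 5 mice therefore carried the Cre recombinase under the Pdgfra promoter, which is active in mesenchymal cells, and the Rosa26-YFP reporter that marks the cells in which it acted. Values are TPM, shares of all transcripts scaled for gene length, so levels can be set side by side between genes.

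Elastic fibres let a tissue stretch and recoil. They form when tropoelastin, the soluble product of Eln, is deposited on a scaffold of fibrillin microfibrils and cross-linked by lysyl oxidases, while fibulins and EMILINs help to bring tropoelastin and microfibrils together. In the oviduct, as in other hollow organs, fibroblasts and smooth muscle cells lay down this matrix in the wall.

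Esr1 itself did not separate the groups. Control mice 2 and 3 had 83.3 and 77.6 TPM of Esr1, whereas the libraries labelled knockout had 28.9, 85.0 and 169.9 TPM in mice 1, 2 and 3. It was thus below both controls in knockout mouse 1 and above both in mice 2 and 3, which goes against the label for the latter pair. TPM per gene do not show whether the floxed exon was absent from these transcripts. Directions below refer to libraries as labelled. The defining stromal marker Pdgfra was present in every library, at 164.9 to 297.9 TPM, and between 15841 and 19432 genes per library reached 1 TPM. Each of the 5 libraries was also left out in turn, whatever its values. Where a gene below passes without knockout mouse 1, the fit lacks the only library labelled knockout whose Esr1 was below both controls.

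None of the 10 genes passed an adjusted p of 0.05 (limma on log2(TPM + 1), Benjamini-Hochberg over 19292 genes), a threshold that 0.0259% of all genes tested passed. At an unadjusted p under 0.05, 2 members were lower, Eln and Emilin2, and 1 was higher, Mfap5. Of all genes tested 9.87% were lower and 3.7% higher at that p. The members did not share one direction. Their log2 fold changes ran from -1.57 for Eln to 0.67 for Fbln5, with 7 below 0 and 3 above, and a median of -0.34 where the median over all genes tested was -0.02. That median rested on single libraries: leaving out control mouse 2 gave -0.07, knockout mouse 3 -0.12, knockout mouse 1 -0.55 and control mouse 3 -0.59.

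**Figure D1:**
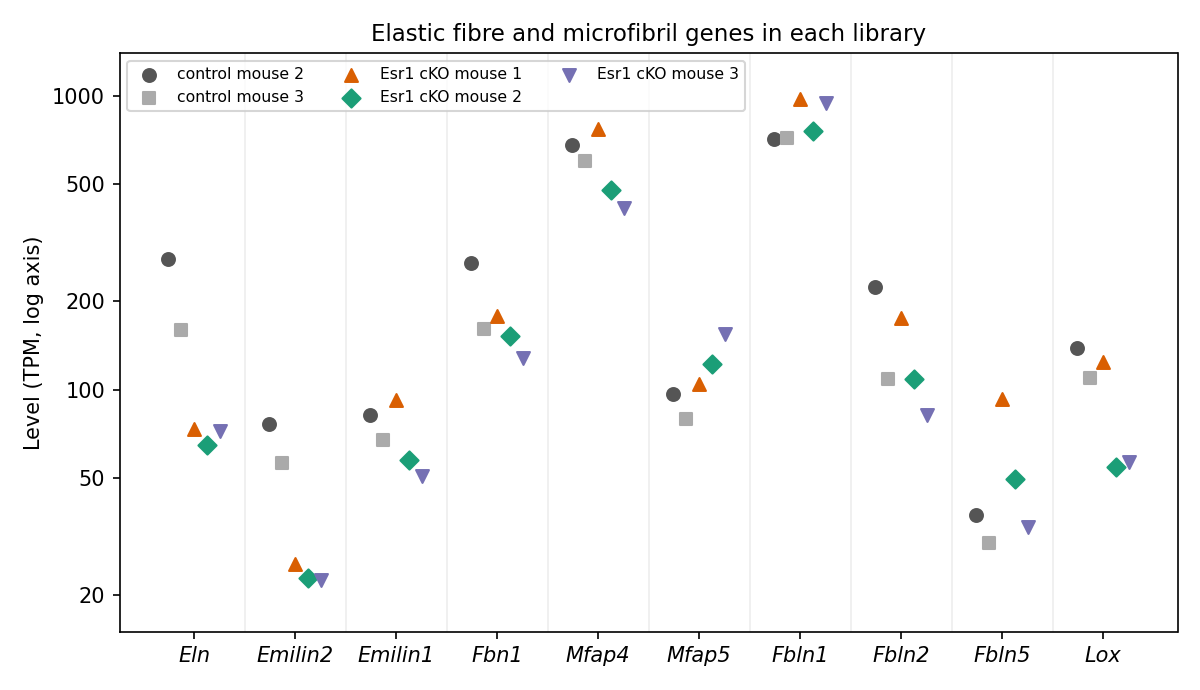
Level of each of the 10 genes in TPM (log axis) in each of the 5 libraries; grey symbols are the 2 controls and coloured symbols the 3 libraries labelled Esr1 conditional knockout (cKO). In every library labelled knockout Eln and Emilin2 lie below both controls, Fbln1 and Mfap5 above both, and the other 6 genes overlap or split.

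In the controls Fbln1 (717 ± 4.6 TPM, SD, n = 2) and Mfap4 (641 ± 59.2 TPM, SD, n = 2) stood well above the other members. Eln and Fbn1 followed at means of 219 and 215 TPM, and their ranges overlapped. Fbn1, Fbln2 and Lox also overlapped with their neighbours in that order, as did Mfap5, Emilin1 and Emilin2, and Fbln5 was lowest at 33.7 ± 5.36 TPM (SD, n = 2). Among the knockout-labelled libraries Fbln1 and Mfap4 again headed the order, now with overlapping ranges. By its mean Eln sat between Lox and Emilin1, but its range overlapped both. Eln ranked 9 of 10 in knockout mouse 1 and 6 in mice 2 and 3. Emilin2 was last in each, below the range of Fbln5. All 10 genes were well expressed. The lowest rank of any member in any library was percentile 72.0 of listed genes, for Emilin2, and Fbln1 and Mfap4 never ranked under 98.9.

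Eln encodes elastin, the elastic core of the fibre, and lies at chr5:134702595-134747368 of GRCm38 (mm10). It stood at 278.6 and 160.1 TPM in control mice 2 and 3 and 73.8, 65.1 and 72.3 TPM across knockout mice 1, 2 and 3. All 3 libraries labelled knockout were below both controls and close to each other (highest over lowest 1.13), while the controls differed 1.74-fold. The control mean was 219 ± 83.8 TPM (SD, n = 2) and the knockout mean 70.4 ± 4.67 TPM (SD, n = 3), which is 32.1% of it. On the log2 scale the fold change was -1.57, standard error (SE) 0.25, and did not pass (limma, adjusted p 0.118). Of the 5 fits without 1 library it passed in 1, without knockout mouse 1 (-1.61, adjusted p 0.0273, limma), and in the other 4 the adjusted p was 0.173 to 0.7. Over all 15 alternatives the adjusted p ran from 0.0128 to 0.7. In bulk RNA, fewer cells that express a gene and less of its RNA per cell cannot be told apart.

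EMILINs are glycoproteins at the boundary between elastin and microfibrils. Emilin2 was at 76.5 and 56.4 TPM in control mice 2 and 3 and at 25.5, 22.9 and 22.6 TPM across knockout mice 1, 2 and 3. As for Eln, the groups did not overlap and the libraries labelled knockout lay within 1.13-fold of each other. The mean was 66.5 ± 14.2 TPM in controls (SD, n = 2) and 23.7 ± 1.62 TPM for knockout (SD, n = 3). The log2 fold change was -1.44, SE 0.19, at an adjusted p of 0.0893 in limma. Without knockout mouse 1 it passed (-1.49, adjusted p 0.0152, limma), and without each of the other 4 libraries it did not (adjusted p 0.164 to 0.7). Over all alternatives the adjusted p ran from 0.00772 to 0.7. Its relative Emilin1 was at 82.3 and 67.3 TPM in controls and at 92.2, 57.8 and 50.7 TPM across knockout mice 1, 2 and 3, above both controls in the first and below both in the others (log2 fold change -0.20, adjusted p 0.741, limma). Within each library the ratio of Emilin2 to Emilin1 TPM was 0.93 and 0.839 in controls and 0.277, 0.396 and 0.445 in knockout mice 1, 2 and 3.

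Emilin2 lies at chr17:71252172-71311556 of GRCm38. RefSeq promoter windows, from 250 bases before to 50 bases after a transcript start, were found for 6 of the 10 members, 9 windows in all. Those of Emilin2 and Fbln5 are shown because, among members with a window, these genes have the lowest and the highest log2 fold change. Each is on the minus strand of GRCm38.p6, written 5′ to 3′, with matches to the motifs named after them in capitals.
Emilin2, chr17:71311507-71311806: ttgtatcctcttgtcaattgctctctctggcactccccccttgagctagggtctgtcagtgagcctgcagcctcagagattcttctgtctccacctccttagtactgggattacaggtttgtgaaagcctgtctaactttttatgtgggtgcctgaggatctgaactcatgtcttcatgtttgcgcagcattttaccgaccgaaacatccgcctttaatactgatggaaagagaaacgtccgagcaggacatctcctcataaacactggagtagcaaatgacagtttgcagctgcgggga
Emilin2, chr17:71310962-71311261: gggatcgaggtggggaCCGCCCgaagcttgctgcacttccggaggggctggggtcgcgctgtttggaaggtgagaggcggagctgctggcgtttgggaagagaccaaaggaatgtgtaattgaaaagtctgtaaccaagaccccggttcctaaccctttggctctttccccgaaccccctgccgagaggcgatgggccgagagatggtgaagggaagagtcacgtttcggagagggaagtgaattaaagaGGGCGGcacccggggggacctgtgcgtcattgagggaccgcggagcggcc
Fbln5, chr12:101819070-101819369: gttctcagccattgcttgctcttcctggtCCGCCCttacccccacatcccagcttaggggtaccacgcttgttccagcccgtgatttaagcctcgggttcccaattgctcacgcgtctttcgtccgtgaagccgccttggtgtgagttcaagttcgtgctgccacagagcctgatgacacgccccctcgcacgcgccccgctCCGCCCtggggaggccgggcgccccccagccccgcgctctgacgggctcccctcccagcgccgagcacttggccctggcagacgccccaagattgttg
Fbln5, chr12:101818435-101818734: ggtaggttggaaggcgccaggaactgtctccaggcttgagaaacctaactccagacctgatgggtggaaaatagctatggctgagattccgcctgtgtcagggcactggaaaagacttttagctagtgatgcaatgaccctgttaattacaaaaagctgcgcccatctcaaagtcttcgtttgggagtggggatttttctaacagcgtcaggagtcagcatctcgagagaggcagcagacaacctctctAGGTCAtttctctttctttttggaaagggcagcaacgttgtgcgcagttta
Both strands were searched for the estrogen response element half-site (AGGTCA), the full element (AGGTCA and TGACCT with 3 bases between them, so each match also holds the half-site), the AP-1 site (TGANTCA), the GC box (GGGCGG) and the TATA box (TATAAA). The full element was in 0 of the 9 member windows and in 7 of 32817 windows of all genes (0.0213%). The half-site was in 1 member window, the second of Fbln5, beginning at position -1 from the start site, and in 16.3% of all windows. The GC box was in 5 member windows and in 35.6% of all windows. In Emilin2 it was in the second window, beginning at positions -234 and 1 from the start site, and none of the 5 motifs matched in the first window. AP-1 and TATA letters were in none of the 9, and in 7.81% and 13.6% of all windows. A match describes letters only, and its absence says nothing about binding.

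Fbn1 encodes fibrillin-1, the backbone of the microfibril. It stood at 269.7 and 160.9 TPM in control mice 2 and 3 and 178.7, 151.9 and 128.2 TPM across knockout mice 1, 2 and 3. Knockout mouse 1 lay between the controls and the other pair below control mouse 3. The log2 fold change of -0.46 (SE 0.26, adjusted p 0.463, limma) depended on 1 control, being -0.09 without control mouse 2 and -0.83 without control mouse 3. Relative to this scaffold the groups separated: Eln per Fbn1 was 1.03 and 0.994 in the controls and 0.413, 0.428 and 0.564 in knockout mice 1, 2 and 3.

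The microfibril-associated proteins differed from each other. Mfap4, which binds tropoelastin and fibrillin, was at 682.5 and 598.7 TPM in controls and at 773.5, 477.1 and 416.2 TPM across knockout mice 1, 2 and 3. It lay above both controls in mouse 1 and below both in mice 2 and 3 (log2 fold change -0.25, adjusted p 0.687, limma). Mfap5, a small glycoprotein of the microfibril surface, was at 96.5 and 79.6 TPM in controls and at 104.6, 122.4 and 155.2 TPM across knockout mice 1, 2 and 3. All 3 were above both controls, and the mean was 127 ± 25.7 TPM (SD, n = 3) against 88.1 ± 11.9 TPM (SD, n = 2). Mfap5 gave a log2 fold change of 0.52, SE 0.21, with adjusted p 0.361 in limma, and did not pass in any of the 15 other settings run. Mfap5 per Fbn1 was 0.358 and 0.495 in controls and 0.585, 0.806 and 1.21 in knockout mice 1, 2 and 3.

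Fibulins link elastin, microfibrils and basement membrane. Fbln1 was the most abundant member in both groups, at 714.0 and 720.5 TPM in controls and 978.8, 759.1 and 946.7 TPM across knockout mice 1, 2 and 3. The controls were within 1% of each other (ratio 0.99) and all 3 other libraries were above them, though mouse 2 only slightly (log2 fold change 0.31, SE 0.20, adjusted p 0.51, limma). Fbln2 was at 223.3 and 108.6 TPM in controls and at 175.4, 108.5 and 82.1 TPM across knockout mice 1, 2 and 3. Knockout mouse 2 lay just below control mouse 3, and each group spread over more than 2-fold (2.06 and 2.13), so no difference could be seen beyond the spread. The log2 fold change of -0.42 (adjusted p 0.628, limma) was 0.10 without control mouse 2.

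Fbln5 encodes the fibulin that tethers tropoelastin to cells through integrins. It was at 37.5 and 30.0 TPM in control mice 2 and 3 and at 92.9, 49.7 and 34.0 TPM across knockout mice 1, 2 and 3. Mouse 1 stood far above all the others and mouse 3 lay between the controls, so the log2 fold change of 0.67 (SE 0.39, adjusted p 0.468, limma) was 0.28 without mouse 1. Per Eln transcript, Fbln5 was at 0.135 and 0.187 in controls and at 1.26, 0.763 and 0.47 in knockout mice 1, 2 and 3, and Fbln1 at 2.56 and 4.5 against 13.3, 11.7 and 13.1.

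Lox encodes lysyl oxidase, which oxidises lysines of tropoelastin and collagen so that they cross-link. It was at 139.0 and 110.0 TPM in controls, at 124.3 TPM in knockout mouse 1 and at 54.7 and 56.7 TPM in mice 2 and 3. Mouse 1 lay between the controls and the other pair well below them. The log2 fold change was -0.76 with all libraries (SE 0.37, adjusted p 0.407, limma) and -1.14 without knockout mouse 1, where it passed (adjusted p 0.0181, limma). Without each of the other 4 libraries it did not pass (adjusted p 0.615 to 0.937). Over the alternatives the adjusted p of Lox was 0.00998 to 0.937.

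**Figure D2:**
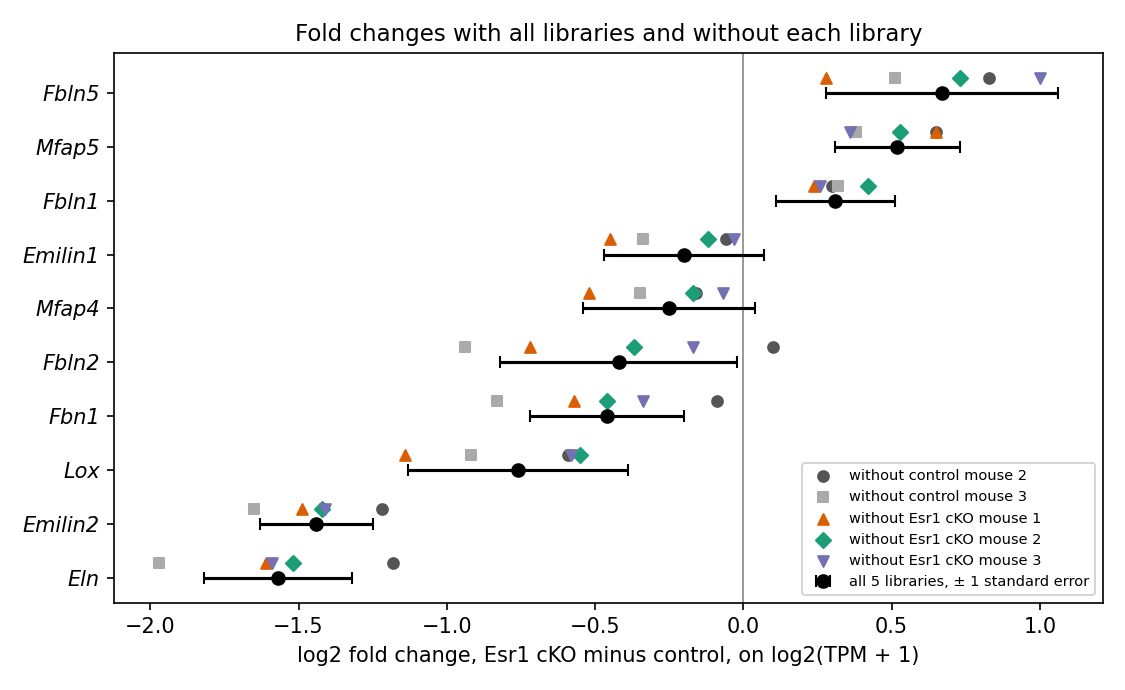
Log2 fold change of each gene (x axis, libraries labelled Esr1 conditional knockout minus controls, on the log2(TPM + 1) scale) with all 5 libraries (black, ± 1 standard error) and without each library in turn (coloured symbols). Eln and Emilin2 stay below -1 in every such fit, Fbn1 ranges from -0.83 to -0.09, and Fbln2 crosses 0.

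Leaving out knockout mouse 1 thus brought 3 of 10 members past the threshold, Eln, Emilin2 and Lox, all lower, and 0 higher. In that fit 2.63% of all genes tested were lower and 5.35% higher. Leaving out any other library brought 0 members past it. With library weights 2 members passed as lower, Eln and Emilin2, where 2.05% of all genes did. With the mouse number as a replicate block 3 passed, the same genes as without mouse 1, where 3.59% did. Mouse 1 has no partner in that block, so its fold changes equal those without mouse 1 and these fits are not independent. The block fit gave the lowest adjusted p (limma) quoted for Eln, Emilin2 and Lox, at 0.0128, 0.00772 and 0.00998. By non-overlap of the groups, 2 of 10 members had every library labelled knockout below both controls, and 2 of 10 had every one above. Of all genes tested 21.9% were below and 11.9% above, so 2 of 10 in each direction is near what other genes show.

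The 10 genes together summed to 2600 and 2092 TPM in control mice 2 and 3 and to 2620, 1869 and 1965 TPM across knockout mice 1, 2 and 3, which overlap. Their make-up differed more than their total. Eln made up 10.7% and 7.7% of the sum in controls and 2.8%, 3.5% and 3.7% in knockout mice 1, 2 and 3. Fbln1 made up 27.5% and 34.4% against 37.4%, 40.6% and 48.2%, and Emilin2 2.9% and 2.7% against 1.0%, 1.2% and 1.1%. Shares of one sum depend on each other, and no test was made on them.

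**Figure D3:**
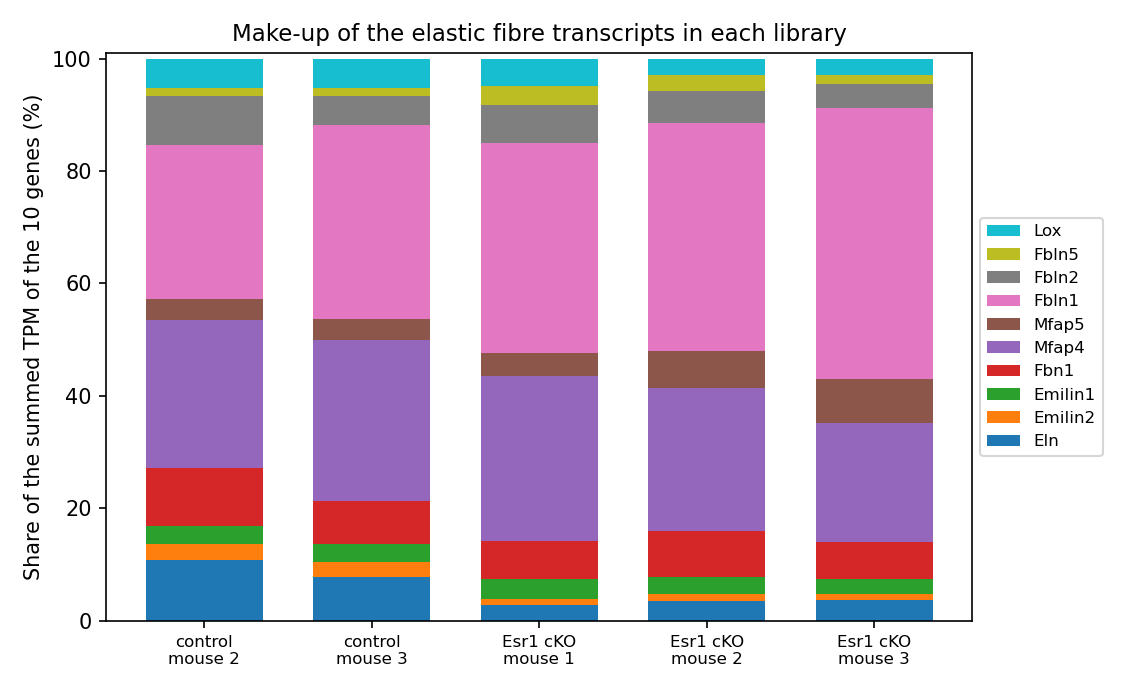
Share of the summed TPM of the 10 genes (y axis, %) taken by each gene in each library, 1 bar per library. The Eln share is 10.7% and 7.7% in the controls and 2.8% to 3.7% in the others, and the Fbln1 share is larger in each library labelled knockout than in either control.

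The wider pathway was followed with 51 further genes in 7 lists, all of them tested. None passed the adjusted threshold in either direction, 5 were higher and 8 lower at an unadjusted p under 0.05 (limma), and the median log2 fold change was -0.12. The groups did not overlap for 13 lower genes (25.5%) and 7 higher genes (13.7%), close to the shares over all genes. Without knockout mouse 1, 3 of the 51 passed as higher and 3 as lower, beside 5.35% and 2.63% of all genes. With library weights 2 passed as higher and 0 as lower, beside 1.35% and 2.05% of all genes. With the replicate block 5 passed as higher and 8 as lower, beside 6.04% and 3.59%. In the other settings none of the 51 passed.

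Among genes of elastin deposition, Ltbp4, a latent TGF-beta binding protein that is needed for elastin assembly, was at 1237.7 and 800.9 TPM in controls and at 550.8, 566.1 and 532.5 TPM across knockout mice 1, 2 and 3 (log2 fold change -0.86, SE 0.23, adjusted p 0.227, limma). Loxl1, the lysyl oxidase relative most tied to elastin, was at 160.1 and 117.1 TPM in controls and at 75.1, 78.3 and 91.6 TPM in the others (log2 fold change -0.74, adjusted p 0.215, limma). Each lay below both controls in knockout mice 1, 2 and 3, as did 2 of the 5 cross-linking genes in all, beside 21.9% of all genes tested. Loxl2, named after its values were seen, was the other, with a log2 fold change of -0.77 (adjusted p 0.333, limma). Of 7 fibulin, EMILIN and multimerin relatives, 4 had a log2 fold change above 0 and 3 below, with a median of 0.22. The 4 fibulin relatives among them, also named afterwards, had log2 fold changes of -0.76 for Efemp1, -0.05 for Efemp2, encoding fibulin-4, 0.39 for Hmcn1 and 1.0 for Fbln7. Efemp1 was below both controls in knockout mice 1, 2 and 3, and Hmcn1 and Fbln7 were above both in all 3.

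Higher values were seen for the second fibrillin and a second latent TGF-beta binding protein. Fbn2 was at 7.56 and 10.4 TPM in controls and at 13.1, 23.9 and 18.8 TPM across knockout mice 1, 2 and 3 (log2 fold change 0.95, adjusted p 0.263, limma). Ltbp2 was at 12.9 and 21.6 TPM and at 30.3, 27.4 and 31.6 TPM (log2 fold change 0.79, adjusted p 0.263, limma). Neither group overlapped the other for these genes, and Fbn2 stayed far below Fbn1 in every library.

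Mmrn1, the EMILIN relative multimerin-1, had the smallest p of the higher genes. It was at 14.3 and 10.8 TPM in controls and at 41.6, 61.9 and 35.0 TPM across knockout mice 1, 2 and 3 (log2 fold change 1.77, SE 0.27, adjusted p 0.117, limma). Mmrn1 is also a gene of lymphatic endothelium, and the lymphatic regulator Prox1 was at 2.93 and 3.18 TPM in controls and at 6.3, 8.9 and 5.58 TPM in the others. The lymphatic marker Lyve1 overlapped between the groups, at 25.7 and 34.4 TPM against 21.8 to 35.7 TPM. The part of lymphatic cells in the Mmrn1 values was not tested.

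Of 8 proteases that cut elastin or microfibrils, 7 had a log2 fold change below 0, with a median of -0.62. Of all genes tested 52.2% were below 0. Of these 8, Ctss, Mmp9, Mmp12 and Elane are made mainly by leukocytes. The 8 immune markers summed to 1940 and 2510 TPM in controls. Across knockout mice 1, 2 and 3 they summed to 1480, 1000 and 740 TPM. Most of each sum was Lyz2, at 1546.3 and 2125.3 TPM in controls and at 1162.7, 738.2 and 552.1 TPM in the others. Ctss, another gene picked afterwards, encodes cathepsin S and was at 361.7 and 336.9 TPM in controls and at 336.1, 214.2 and 99.9 TPM in the others, and the leukocyte marker Ptprc at 54.6 and 50.8 TPM and at 46.6, 30.4 and 15.6 TPM. The part of immune cells in the protease values was not tested. Mmp14, a membrane-bound metalloproteinase, was at 255.8 and 220.7 TPM in controls and at 181.1, 145.1 and 165.8 TPM across knockout mice 1, 2 and 3 (log2 fold change -0.54, adjusted p 0.293, limma). Elane, neutrophil elastase, was low throughout, at 5.33 and 3.82 TPM in controls and at 0.17, 2.48 and 0.853 TPM in the others (log2 fold change -1.50, adjusted p 0.279, limma). Timp3, a matrix-bound metalloproteinase inhibitor, was at 161.7 and 147.6 TPM and at 174.3, 279.3 and 274.3 TPM (log2 fold change 0.62, adjusted p 0.35, limma).

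**Figure D4:**
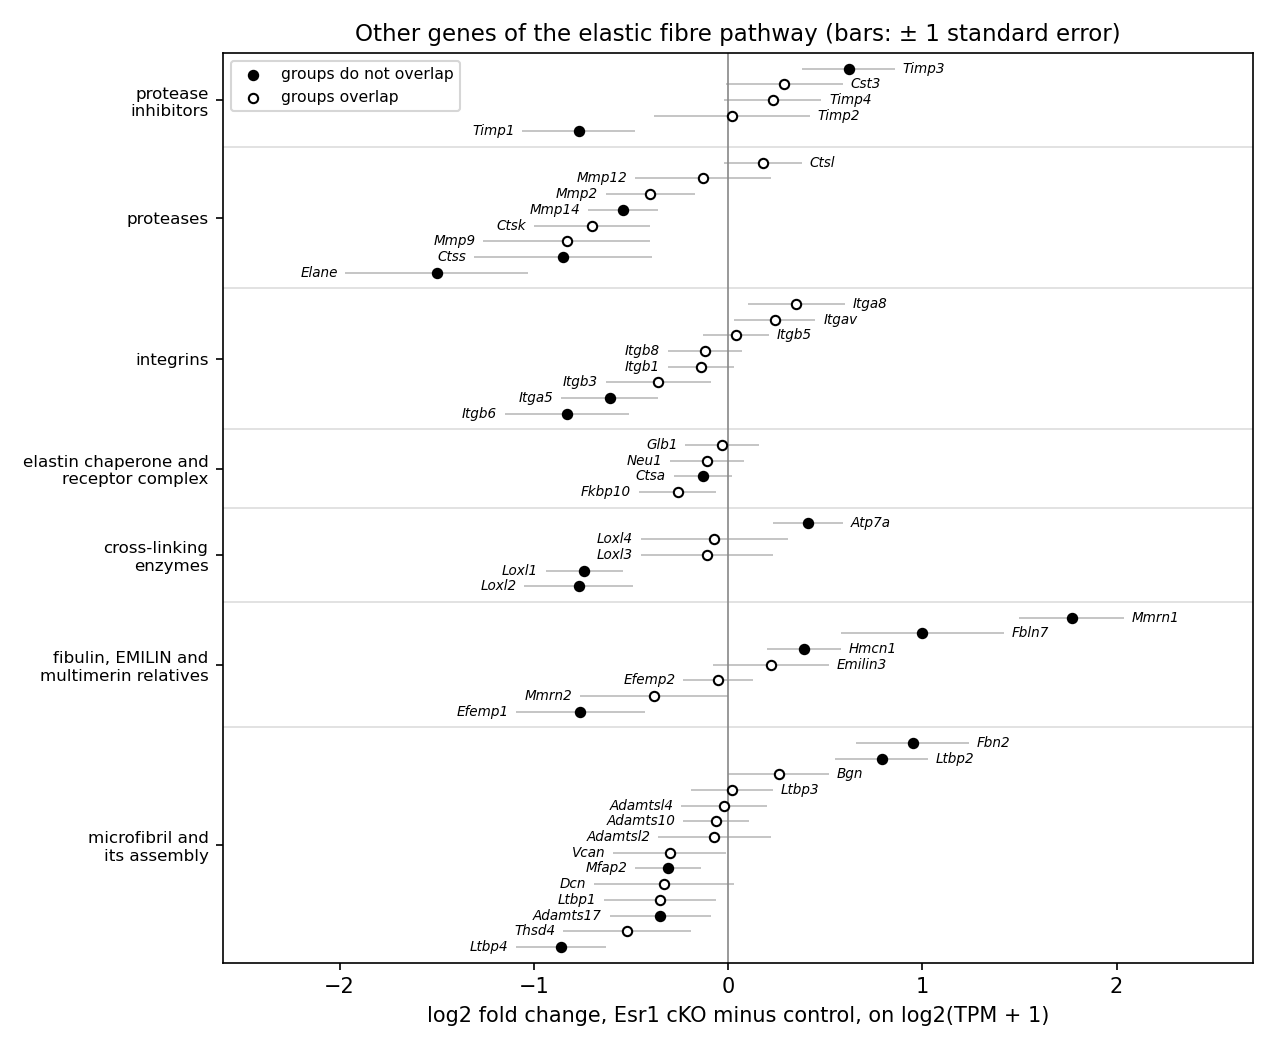
Log2 fold change (x axis, libraries labelled Esr1 conditional knockout minus controls, on the log2(TPM + 1) scale, ± 1 standard error) of 51 further genes in 7 lists; filled circles mark genes whose groups do not overlap. Ltbp4 and Loxl1 lie at -0.86 and -0.74 and Mmrn1 at 1.77, and none passed the adjusted threshold.

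The levels of cell type markers also differed between libraries. The 9 stromal markers summed to 23700 and 19200 TPM in controls. Across knockout mice 1, 2 and 3 they summed to 16300, 12800 and 14700 TPM. Of these markers 4 of 9 were below both controls in all 3, beside 21.9% of all genes tested. Those 4 were Col1a1, Col1a2, Col3a1 and Lum, which encode matrix proteins. Lum, at 25.0% of its control mean, had a log2 fold change of -2.01 (adjusted p 0.0978, limma), while Pdgfra, Vim and Thy1 were at 0.13, 0.09 and 0.52 on the log2 scale. Pdgfrb and Dcn, the latter also encoding a matrix protein, were at -0.18 and -0.33, and neither was below both controls in all 3. Dcn was the largest part of each stromal sum, at 10110.4 and 9065.6 TPM in controls and at 9343.6, 6764.4 and 7023.7 TPM in the others. The 11 epithelial markers summed to 3110 and 3390 TPM in controls, to 2190 TPM in knockout mouse 1 and to 12100 and 13200 TPM in mice 2 and 3. Most of each sum was Ovgp1, at 2273.0 and 2462.6 TPM in controls and at 1522.0, 10655.4 and 11257.7 TPM across knockout mice 1, 2 and 3. In each of mice 2 and 3, 10 of 11 epithelial markers were above both controls. Every member except Mfap5 was lower in mice 2 and 3 than in mouse 1. For Eln and Emilin2 this difference was small, as the libraries labelled knockout lay within 1.13-fold of each other. Against the controls, Fbln1 and Mfap5 were above both in mice 2 and 3, and Fbln5 was above both in mouse 2. Fbln5 lay between the controls in mouse 3, and the other members were below both in mice 2 and 3. In mouse 1, 7 of 11 epithelial markers were below both controls. No share over all genes is given for these counts in single libraries. Of the immune markers, 6 of 8 were below both controls in knockout mice 1, 2 and 3, beside 21.9% of all genes tested. Cd3e and Kit were each below both controls in 1 of these libraries and above both in 2.

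Mesothelial markers went in different directions. Msln was at 123.3 and 99.6 TPM in controls and at 30.4, 45.2 and 44.4 TPM across knockout mice 1, 2 and 3. Msln, Upk3b and Lrrn4, 3 of 5 markers, were below both controls in all 3 libraries. Wt1 was above both in all 3, and Krt19, which epithelium shares, split. Over all genes tested 21.9% were below both and 11.9% above both. The 5 summed to 835 and 712 TPM in controls and to 441, 739 and 967 TPM in the others. Of these sums Krt19 alone gave 268.1 and 227.5 TPM in controls and 134.8, 330.0 and 545.4 TPM across knockout mice 1, 2 and 3. Smooth muscle cells are the other main source of elastin. Their markers summed to 636 and 433 TPM in controls and to 534, 479 and 467 TPM in the others, which overlap. Of these markers 2 of 8 were below both controls in all 3, near the share of 21.9% over all genes tested. Pericyte markers summed to 103 and 105 TPM against 75.4 to 102 TPM, and endothelial markers to 220 and 236 TPM against 172 to 264 TPM. No list had a marker at 0 in every library. The part of any of these cell types in the members' values was not tested.

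Mfap5 marks adventitial fibroblasts in many organs together with Pi16. Pi16 was at 79.6 and 57.4 TPM in controls and at 131.4, 164.4 and 266.8 TPM across knockout mice 1, 2 and 3, above both controls in all 3 and in the same order of libraries as Mfap5. The other 6 adventitial markers all had a log2 fold change below 0. Of these 6, 3 lay below both controls in every knockout-labelled library, beside 21.9% of all genes tested. Dpp4, among the 3, was at 44.7 and 43.6 TPM in controls against 19.2, 25.0 and 19.0 TPM.

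Genes with the most similar pattern were sought for Eln, Fbn1 and Lox among 12596 other genes with a mean of at least 5 TPM, by the root mean square difference of log2(TPM + 1) values centred on their mean over the 5 libraries. Nearest to Eln were Nova1 (0.119), Srgap1 (0.125) and Agtr2 (0.125). Emilin2, at 0.145, was the nearest member, and the next, Fbn1, was at 0.569. Nearest to Fbn1 were Lamc1 (0.065), a laminin chain, Pcsk5 (0.067) and Fam124a (0.076), with Fbln2 the nearest member at 0.221. Nearest to Lox were Dpt (0.09), encoding the matrix protein dermatopontin, Nat14 (0.111) and Tnfaip6 (0.113), and its nearest member was Mfap4 at 0.291. Agtr2, encoding an angiotensin receptor, was at 59.3 and 29.1 TPM in controls and at 16.3, 12.9 and 16.6 TPM across knockout mice 1, 2 and 3, and Dpt at 1250 and 983 TPM in controls and at 963, 441 and 505 TPM. With 5 libraries such likeness is a description only.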

How the data were processed

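RNA from sorted YFP-positive oviductal stromal cells of 5 mice was sequenced from low-input SMARTer libraries, per the labels' protocols. The authors deposited TPM per gene, which summed to 1000000 in each library. The table's own name says STAR, and mm10 is listed in the submitters' processing notes. Aligner version, counter, annotation, filters and strand setting are not given in the sources used here. TPM keeps no total depth, and the steps among low values did not give 1 unambiguous depth per library, so depth is unknown and precision was judged from the spread between libraries. TPM is a share, so 1 abundant RNA lowers all other values: Rpph1 took 13.1% to 22.3% of each library.

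A limma model (version 3.58.1, R 4.3.3) was fitted to log2(TPM + 1) (eBayes with trend, genotype only, two-sided), for 19292 genes with at least 1 TPM in at least 2 libraries, adjusted by Benjamini-Hochberg. Fold changes on this scale understate those of low genes. p-values measure the spread between 5 mice. In data simulated for this comparison with 200 changed genes among 19292, 0% of log2 changes of 1, 89.5% of changes of 2 and 100% of changes of 3 were recovered, with 0, 9 and 12 unchanged genes called. The simulated noise was independent between genes and libraries. It held no differences that run through a whole library, so these rates may be too high for the real libraries. Samples were grouped by their titles. Named are the members, Esr1 and Pdgfra, pathway genes past the threshold or with the 4 smallest p in each direction, and the 3 genes nearest in pattern to Eln, Fbn1 and Lox. Further genes are named from marker lists or as chosen afterwards. The members and lists were chosen with earlier results of these data known. Symbols were matched to RefSeq for GRCm38.p6 (99.6% of those listed), which gave coordinates and promoter windows. In GENCODE M21 exons of Eln, Fbn1, Lox and Mfap4 overlap a gene on the opposite strand. Of these only Mapk7, at 11.9 to 17.9 TPM beside Mfap4, is listed. Tables and figures were made with Python 3.11.15, numpy 2.4.6, pandas 2.3.3 and matplotlib 3.10.9. As alternatives, the pseudocount, low-value filter, scaling, variance model and library weights were varied, a replicate block was added, and each library was left out.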

Additional observations from a re-analysis of the deposited data

How the results depend on the processing

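Eln and Emilin2 kept their direction in all 15 alternatives, from -1.97 to -1.18 and from -1.65 to -1.22 on the log2 scale. Their adjusted p (limma) ran from 0.0128 to 0.7 and from 0.00772 to 0.7, and each passed in 3 alternatives. Over the 10 members, 141 of the alternative values kept direction and side of the threshold, 8 newly passed and 1 reversed, Fbln2, which ranged from -0.94 to 0.10 over the fits without 1 library and was 0.10 without control mouse 2. In fits with 1 control left, that library is assumed to vary like the others.

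The counts over all genes, 2 higher and 3 lower, depended on the setting. A pseudocount of 0.1 gave 0 and 0, with 2233 genes at an unadjusted p under 0.05, and so did the filter at a mean TPM of 5, with 1389. Robust eBayes and the unfiltered table each gave 1 higher gene. Quantile normalization, median-of-ratios scaling and eBayes without trend gave 0 higher (limma, 2573, 3000 and 2800 genes unadjusted). Lower genes numbered 5 without Rpph1 and Rn45s. Library weights gave 260 and 396. Leaving out 1 library gave 0 to 1022 higher and 0 to 502 lower, the upper ends without knockout mouse 1. The lower members, 0 with all libraries, numbered 2 with library weights and 0 to 3 without 1 library. At an unadjusted p under 0.05 the split of 713 higher and 1904 lower genes was 1195 and 1378 after quantile normalization and 1289 and 1711 after median-of-ratios scaling. Higher genes outnumbered lower ones in 3 settings, with 2827 and 2590 under library weights, 3326 and 2087 with the replicate block and 3388 and 2215 without knockout mouse 1. The Esr1 log2 fold change was 0.15 with library weights and -0.68 to 0.57 over the fits without 1 library. The cause was not tested.

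With the mouse number as a replicate block there were 1165 higher and 693 lower genes and 3 lower members, and Esr1 was at 0.57. Mouse 1 has no partner, so its fold changes equal those without it. Over genes, same-numbered libraries had deviations from their group means that correlated at -0.06 (mouse 2) and -0.072 (mouse 3). The 2 controls deviate from their mean by equal and opposite amounts, so these correlations are not independent. Whether same-numbered libraries share more than a number cannot be told from them.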
